A study of Mus musculus with 21 samples.

Results

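The binding of Foxa2 was compared between an early and a late stage of the conversion of mouse fibroblasts into hepatocyte-like cells. The regions described are all peaks of the 2 chromatin immunoprecipitation sequencing (ChIP-seq) lists made with an antibody to Foxa2 in cells given Foxa2 and Hnf4a, called the Foxa2 line here. They number 17157 of the 53537 peaks in the 13 peak lists of the series, with 6827 at 48 hours and 10330 in the late cells. Positions are on build mm9. A 48-hour peak was called kept if at least 1 bp of it overlapped a late Foxa2 peak and lost if not. A late peak was called already present if it overlapped a 48-hour Foxa2 peak and gained if not.

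Embryonic fibroblasts of C57BL/6 mice, taken at 13.5 days post coitum, received retroviruses for Hnf4a (Hnf4alpha in the labels) and for 1 of Foxa1, Foxa2 or Foxa3, and were collected after 48 hours or as established iHep cells. All groups therefore carry Hnf4a in addition to a Foxa protein. Each of the 3 lines has 1 Foxa and 1 Hnf4a library per stage, and the 13th list belongs to a Ty1-tagged deletion mutant of Foxa3, del2, given with Hnf4a and placed at 48 hours by its title and at iHep by its stage label. The antibody does not separate introduced from endogenous Foxa2, and the sources used here do not give the number of iHep isolates or the passage. The titles carry the code R209 for the 48-hour and R215 for the iHep Foxa2 library, and the iHep Hnf4a library of the line carries R242. Whatever these codes stand for and the stage cannot be told apart. With 1 library a side there is no replicate spread, no test and no p-value. The 95% Wilson intervals given after shares reflect counting error alone, and peaks that lie close together are not independent. Peak lists carry no marker expression, so the identity of the cells was not checked.

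Foxa2 is a forkhead transcription factor whose winged-helix domain lets it bind its sites on nucleosomes, for which the Foxa proteins are called pioneer factors. It acts with its paralog Foxa1 in the specification of the liver, and Foxa3 is a further paralog. Hnf4a is a nuclear receptor that drives hepatocyte genes, and together with any of the 3 Foxa proteins it is used to turn fibroblasts into iHep cells.

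Most Foxa2 peaks were found at 1 stage only. Of the 48-hour peaks, 2148 were kept, which is 31.5% of the list (30.4% to 32.6%), and 4679 were lost, which is 68.5%. Of the iHep peaks, 2148 were already present, 20.8% of that list (20.02% to 21.6%), and 8182 were gained, 79.2%. Joined over both lists there were 15005 distinct sites, of which 2144 were bound at both stages, 4679 at 48 hours alone and 8182 in iHep cells alone. There were thus 1.75 gained peaks per lost peak.

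Few pairs of peaks lay close to the limit of the overlap rule. Kept peaks overlapped their counterpart by 38 bp or more, and only 13 of the 2152 overlapping pairs shared less than 50% of the shorter peak. The peak centres lay 38.5 bp apart in the median pair, and 1852 pairs (86.1%) had centres within 100 bp. On the other side of the rule, the lost peak closest to an iHep peak lay 16 bp from its edge and the closest gained peak 103 bp from a 48-hour peak. There were 36 lost peaks (0.769%) and 47 gained peaks (0.574%) within 500 bp of a peak of the other stage.

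The best-ranked kept sites were also sites of Foxa1. The highest-scoring 48-hour Foxa2 peak, on chromosome 10 at 86307891 to 86308738, had a score of 686 and overlapped the iHep peak of rank 2, 86307898 to 86308753, with a score of 308. The next kept site by summed rank, on chromosome 2 at 110007428 to 110008134, scored 203 at 48 hours and 231 in iHep cells. The kept site on chromosome 5 at 91160193 to 91160910 scored 157 and 176. Scores were 110 and 254 at the chromosome 14 site, 100045348 to 100046082, and 137 and 175 at the chromosome 3 site, 146538799 to 146539562. The authors' score is not defined in the sources used here, so a higher value in one list than in the other shows no change. All 5 sites were in the Foxa1 lists of both stages and in the 48-hour Foxa3 list, and none was in the iHep Foxa3 list. The 48-hour Foxa1, iHep Foxa1 and 48-hour Foxa3 lists held 45.3%, 15.4% and 2.36% of the whole 48-hour list. They held 94.8%, 66.6% and 11.2% of kept peaks in its top 10% by score. The chromosome 10 and chromosome 14 sites also held an iHep Hnf4a peak of the Foxa2 line.

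Loss reached strong sites as well. The lost site with the highest score, 190, lay on chromosome 8 at 110208573 to 110209236 and had rank 5 in the 48-hour list. Lost sites with a score of 117 followed on chromosome 5 (43913973 to 43914553) and chromosome 14 (62594742 to 62595553). A site on chromosome 18 scored 114, and one on chromosome 9 (61011509 to 61012369) scored 113. All 5 were 48-hour Foxa1 peaks in the Foxa1 line, and the first 3 were 48-hour Foxa3 peaks too. Only the chromosome 9 site was an iHep Foxa1 peak, and none held an Hnf4a peak. Among all lost peaks in the top 10% by score, 79.7% held 48-hour Foxa1, 5.33% 48-hour Foxa3 and 3.67% iHep Foxa1. In the whole 48-hour list these shares were 45.3%, 2.36% and 15.4%. Among kept peaks of the same top 10% they were 94.8%, 11.2% and 66.6%, so lost peaks lay below kept peaks of like rank.

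The gained site with the highest score, 221, was on chromosome 4 at 56114985 to 56115758 and had rank 9 in the iHep list. Scores of 197 and 189 belonged to gained sites on chromosome 8 (66231792 to 66232470) and chromosome 3 (113242382 to 113243158). Another chromosome 4 site (44362951 to 44363603) scored 179 and a chromosome 17 site (35848417 to 35849115) scored 172. All 5 overlapped a Foxa1 peak of the Foxa1 line at 48 hours and another in iHep cells. Among all gained peaks in the top 10% by score, 69.0% held 48-hour and 78.7% iHep Foxa1. In the whole iHep list these shares were 34.6% and 28.3%. Among already present peaks of the same top 10% they were 98.2% and 89.0%, so gained peaks lay below already present peaks of like rank. The chromosome 17 site also overlapped an iHep Foxa3 peak and the single peak of the del2 mutant, which lay at 0.00968% of the iHep Foxa2 list and at no 48-hour Foxa2 peak.

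Within each list, peaks shared between the stages stood higher in score. At 48 hours the median score was 19.7 for kept peaks (order-statistic interval 18.95 to 20.3) and 15.02 for lost peaks (14.7 to 15.3). In iHep cells it was 29.4 for already present peaks (27.9 to 30.9) and 18.8 for gained peaks (18.5 to 19.005). The kept share was 18.7% (15.99% to 21.8%) in the lowest 10% of the 48-hour list by score and 56.1% (52.3% to 59.8%) in the highest. The already present share was 11.7% (9.89% to 13.8%) in the lowest 10% of the iHep list and 49.1% (46.0% to 52.1%) in the highest. Among the best peaks, 74 of the 100 best 48-hour peaks and 73 of the 100 best iHep peaks were shared, beside 287 of the best 500 in each list. Of the 683 peaks in the top 10% at 48 hours 300 were lost, and 526 of the 1033 in the top 10% of the iHep list were gained.

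**Figure D1:**
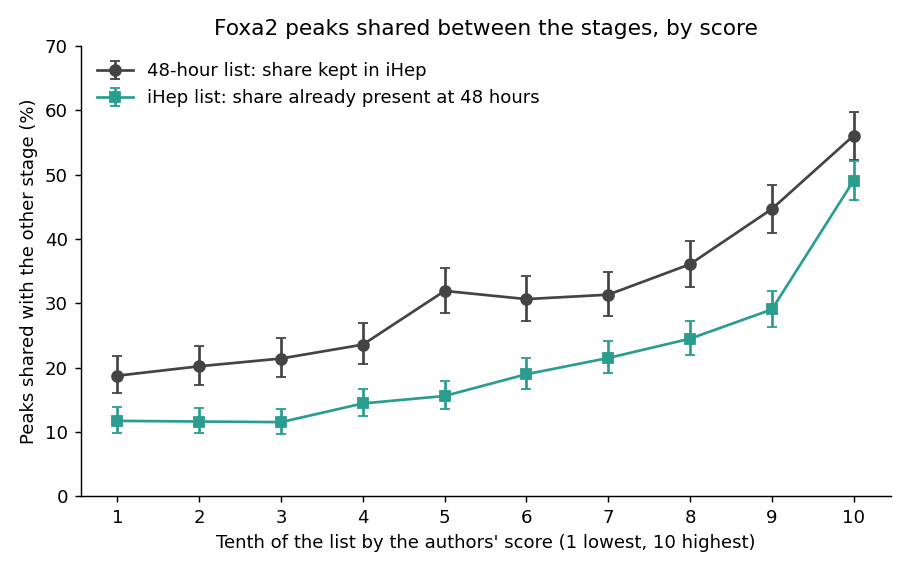
Share of Foxa2 peaks (%, vertical axis) that overlap a Foxa2 peak of the other stage, for 10 equal groups of the 48-hour list (circles) and of the iHep list (squares) ordered by the authors' score; bars are 95% Wilson intervals. Both shares are highest in the top group, at 56.1% and 49.1%, and the lowest 3 groups of the iHep list lie at 11.5% to 11.7%.

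A strong site at one stage was often not a strong site at the other. Across the 2152 overlapping pairs, the rank correlation (Spearman's rho) of the 48-hour and iHep scores was 0.23 and that of the widths 0.20, given as descriptions since the pairs share their libraries. Of 384 pairs whose 48-hour peak was in the top 10% of its list, 162 were in the top 10% of the iHep list and 66 in its lower 50%. Of 509 pairs in the top 10% of the iHep list, 127 came from the lower 50% of the 48-hour list.

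Shared peaks were also wider. The median width was 456 bp for kept peaks (449 to 463 bp) and 411 bp for lost peaks (406 to 416 bp), and 523 bp for already present peaks (514 to 528 bp) against 448 bp for gained peaks (445 to 451 bp). No peak was narrower than 310 bp at 48 hours or 325 bp in iHep cells, and each list had peaks at exactly that smallest width. They made up 6.92% of lost and 3.54% of kept peaks, and 2.76% of gained and 0.885% of already present peaks. In 64.5% of the overlapping pairs (62.5% to 66.5%) the iHep peak was the wider one, with a median width ratio of 1.11.

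Width and score went together, with a rank correlation of 0.68 in the 48-hour and 0.76 in the iHep list. With each list divided into 3 equal groups by score and by width, the kept share in the middle score group was 29.6%, 30.3% and 28.3% for narrow, middle and wide peaks. In the lowest score group it was 20.5% (18.5% to 22.6%) for narrow and 13.8% (9.94% to 18.8%) for wide peaks. In the middle score group of the iHep list the already present share was 14.3% (12.2% to 16.6%) for narrow and 22.7% (19.7% to 26.01%) for wide peaks. The highest score group of the 48-hour list held 44 narrow peaks, of which 24 were kept.

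Lost, kept and gained sites differed most in the company of Foxa1, mapped in its own line. Of kept peaks 76.5% (74.7% to 78.3%) overlapped a 48-hour Foxa1 peak, of lost peaks 30.9% (29.6% to 32.3%), and of the whole 48-hour list 45.3%. Of gained peaks 23.6% (22.7% to 24.6%) did so, beside 34.6% of the whole iHep list. Counted over the 6781 peaks of the 48-hour Foxa1 list, 24.3% lay at kept, 21.5% at lost and 28.5% at gained Foxa2 peaks. In all, 1933 gained Foxa2 peaks lay at 48-hour Foxa1 peaks of the Foxa1 line.

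The iHep Foxa1 list held few lost sites. It held 995 of the kept peaks (46.3%, 44.2% to 48.4%) and 58 of the lost peaks (1.24%, 0.960% to 1.60%), beside 15.4% of the whole 48-hour list. Of the gained peaks it held 1925 (23.5%, 22.6% to 24.5%), beside 28.3% of the whole iHep list. The iHep Foxa1 list has 3435 peaks, of which 29.0% lay at kept, 1.69% at lost and 56.2% at gained Foxa2 peaks. Of the iHep Foxa1 peaks 2929 (85.3%) overlapped an iHep Foxa2 peak. With the longer lists reduced to 6827 peaks the lost share was 2.102%, and the kept share 54.5%.

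Most sites lost in the Foxa2 line had no Foxa1 peak in the iHep cells of the Foxa1 line. A low share was largely set in advance. Lost sites have no iHep Foxa2 peak by definition, and 85.3% of the 3435 iHep Foxa1 peaks overlapped one. Among 48-hour Foxa2 peaks that held Foxa1 at 48 hours, 939 of 1644 kept peaks (57.1%, 54.7% to 59.5%) but 49 of 1448 lost peaks (3.38%, 2.57% to 4.45%) held Foxa1 in iHep cells. Among those without Foxa1 at 48 hours, 56 of 504 kept peaks (11.1%) and 9 of 3231 lost peaks (0.279%) did. In the iHep list the classes lay closer together. With Foxa1 at 48 hours, 57.1% of already present and 50.8% (48.5% to 53.0%) of gained peaks held iHep Foxa1, and without it 11.1% (8.66% to 14.2%) and 15.1% (14.2% to 16.02%) did.

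**Figure D2:**
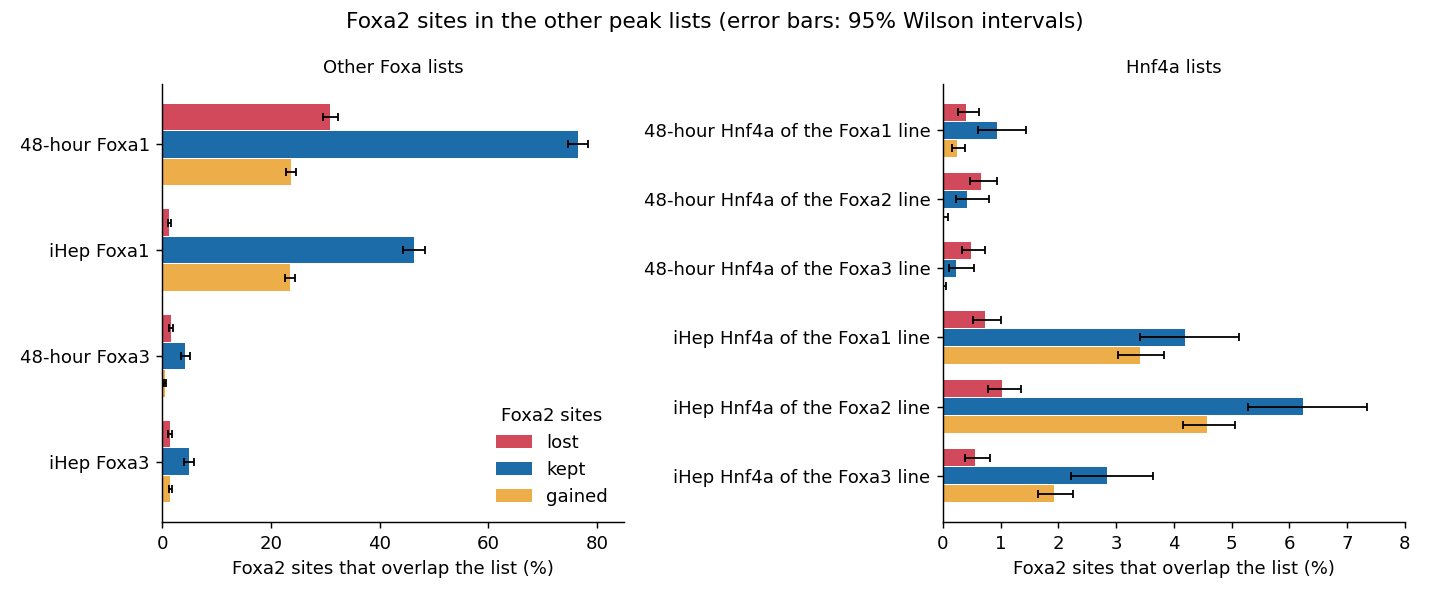
Share (%, horizontal axis) of lost and kept 48-hour Foxa2 peaks and of gained iHep Foxa2 peaks that overlap each other Foxa list (left) and each Hnf4a list (right, on a narrower scale), with 95% Wilson intervals. Kept sites have the longest bars in the Foxa lists, with 76.5% at 48-hour Foxa1, while lost sites reach 1.24% in iHep Foxa1 and at most 1.03% in any iHep Hnf4a list.

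Foxa2 peaks at a 48-hour Foxa1 peak were kept more often than others, at low and high scores alike. Of the 3092 Foxa2 peaks that overlapped a 48-hour Foxa1 peak 53.2% (51.4% to 54.9%) were kept, and of the 3735 others 13.5% (12.4% to 14.6%), beside 31.5% of the list. In 4 equal groups of the list from lowest to highest score, the kept share with Foxa1 was 51.2%, 50.8%, 50.8% and 56.4%, and without Foxa1 9.92%, 13.9%, 15.98% and 18.1%. The intervals do not meet in any group, since the lowest bound with Foxa1 was 46.4% and the highest without it 22.1%. Foxa1 was held by 406 peaks of the lowest group and 1288 of the highest. In the iHep list 46.0% (44.3% to 47.6%) of peaks at 48-hour Foxa1 and 7.46% (6.86% to 8.11%) of the others were already present. With the longer lists reduced to 6827 peaks the kept shares were 45.8% with Foxa1 and 8.57% without. Foxa1 and Foxa2 were mapped with different antibodies in different lines, and the protein, the antibody and the line cannot be told apart.

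**Figure D3:**
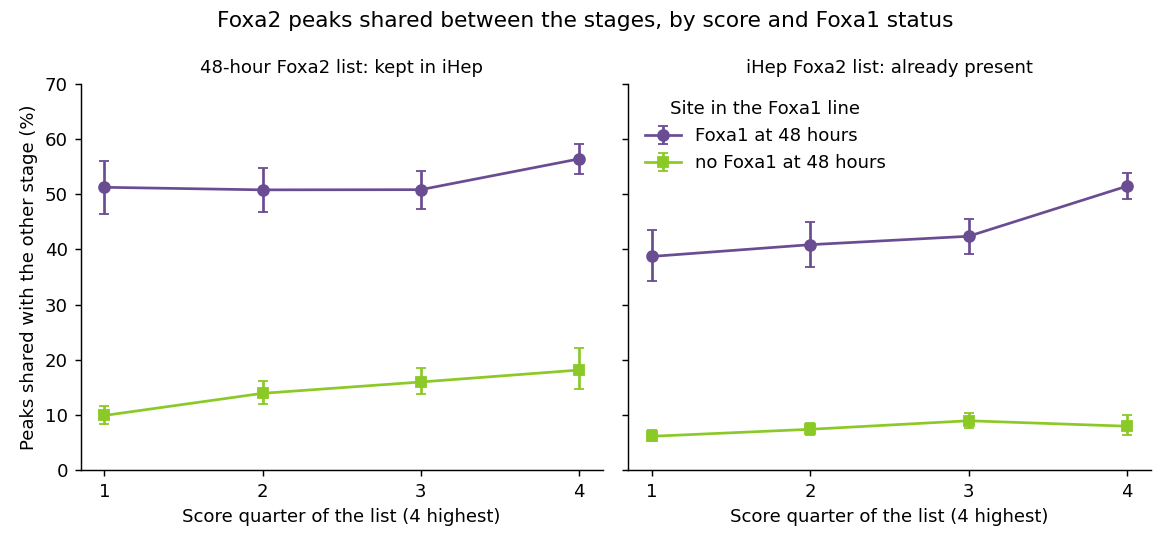
Share of Foxa2 peaks (%, vertical axis) shared with the other stage in 4 equal groups by score (horizontal axis) of the 48-hour list (left) and the iHep list (right), for sites with a 48-hour Foxa1 peak in the Foxa1 line (circles) and without (squares); bars are 95% Wilson intervals. With Foxa1 the 48-hour list stays between 50.8% and 56.4%, without it between 9.92% and 18.1%.

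Foxa2 peaks that shared their site with Foxa1 had higher scores, except for 48-hour peaks with Foxa1 in iHep cells alone. In the iHep list the median score was 53.7 (50.6 to 56.2) for already present peaks and 41.2 (39.0 to 43.8) for gained peaks with Foxa1 at both stages. It was 27.8 (26.3 to 29.6) for the 944 gained peaks with Foxa1 in iHep cells alone, 21.4 (20.4 to 22.6) for the 952 with Foxa1 at 48 hours alone and 16.3 (16.04 to 16.4) for the 5305 with Foxa1 at neither stage. At 48 hours, lost peaks with Foxa1 at 48 hours alone had a median score of 20.1 (19.4 to 21.2), and lost peaks with Foxa1 at neither stage 13.7. Kept peaks with Foxa1 at 48 hours alone had 20.4 (18.95 to 21.4), an interval that overlaps that of the lost ones. The 56 kept peaks with Foxa1 in iHep cells alone had 15.6 (13.98 to 17.1). Those with Foxa1 at neither stage had 15.03 (14.4 to 15.7). The 9 lost peaks with Foxa1 in iHep cells alone had 12.7 (8.39 to 24.9).

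Among the strongest peaks of each list, Foxa1 was more frequent at shared sites than at lost or gained sites of the same list. Of the 300 lost peaks in the top 10% at 48 hours, 239 (79.7%, 74.8% to 83.8%) held 48-hour Foxa1 and 11 (3.67%, 2.06% to 6.45%) iHep Foxa1. Of the 383 kept peaks in that group, 363 (94.8%) held 48-hour and 255 (66.6%, 61.7% to 71.1%) iHep Foxa1. Of the 526 gained peaks in the top 10% of the iHep list, 363 (69.0%, 64.9% to 72.8%) held 48-hour Foxa1 and 414 (78.7%, 75.01% to 82.0%) iHep Foxa1. Of the 507 already present peaks there, 498 (98.2%, 96.7% to 99.1%) held 48-hour and 451 (89.0%, 85.9% to 91.4%) iHep Foxa1. Within the top 10% of the iHep list, already present peaks thus held iHep Foxa1 more often than gained peaks. The order was the same over the whole classes, with 46.3% against 23.5%. Kept and gained peaks of the top 10% were ranked in different lists, so their shares are not comparable.

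Foxa3 was rare at all 3 kinds of site and least rare at kept ones. The 48-hour Foxa3 list held 89 kept peaks (4.14%, 3.38% to 5.07%) and 72 lost peaks (1.54%, 1.22% to 1.93%), beside 2.36% of the 48-hour list. It held 39 gained peaks (0.477%, 0.349% to 0.651%), beside 1.22% of the iHep list. The iHep Foxa3 list held 104 kept (4.84%, 4.01% to 5.83%), 63 lost (1.35%, 1.05% to 1.72%) and 120 gained peaks (1.47%, 1.23% to 1.75%), beside 2.45% of the 48-hour and 2.19% of the iHep list. As shares of the other list, the 48-hour Foxa3 list of 5690 peaks had 1.58% of its peaks at kept, 1.60% at lost and 0.721% at gained sites, and the iHep Foxa3 list of 12661 peaks had 0.893%, 0.545% and 1.08%. The 48-hour Foxa2 and Foxa3 libraries share the title code R209. None of the 526 gained peaks in the top 10% of the iHep list overlapped a 48-hour Foxa3 peak, which allows a share of up to 0.570%, while 28 of the 507 already present peaks there did (5.52%).

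The iHep Hnf4a lists, of any line, held kept Foxa2 sites more often than lost ones. They held gained sites about as often as the whole iHep list. Gained and lost peaks come from different lists, so their shares are not comparable. The iHep Hnf4a list of the Foxa2 line held 134 kept peaks (6.24%, 5.29% to 7.34%) and 48 lost peaks (1.03%, 0.775% to 1.36%), beside 2.67% of the 48-hour list. It held 375 gained (4.58%, 4.15% to 5.06%) and 136 already present peaks (6.33%, 5.38% to 7.44%), beside 4.95% of the iHep list. Of its 2485 Hnf4a peaks, 5.39% lay at kept, 1.77% at lost and 15.1% at gained Foxa2 peaks. In the iHep Hnf4a list of the Foxa1 line the shares were 4.19% of kept, 0.727% of lost and 3.41% of gained peaks, beside 1.82% of the 48-hour and 3.53% of the iHep list. In that of the Foxa3 line they were 2.84%, 0.556% and 1.93%, beside 1.27% and 2.12%. Conversely, 73.6% (66.8% to 79.5%) of the 182 48-hour Foxa2 peaks at an iHep Hnf4a peak of the line were kept, against 30.3% of the others.

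Within the kept and within the lost class, the share at iHep Hnf4a was similar at weak and strong 48-hour Foxa2 peaks. In 4 equal groups of the 48-hour list by score, 5.04%, 6.61%, 5.95% and 6.73% of kept peaks and 0.876%, 1.28%, 0.869% and 1.10% of lost peaks were at iHep Hnf4a of the Foxa2 line. Kept peaks numbered 337 in the lowest group and 802 in the highest, so the share over both classes was higher in the highest group. In the iHep list the share was higher in the top group, at 9.40% (7.69% to 11.4%) of already present and 7.23% (6.07% to 8.58%) of gained peaks, against 3.04% and 4.198% in the lowest. Already present peaks with Hnf4a had a median score of 45.5 (36.8 to 52.2) and those without 28.4 (27.0 to 30.0), while gained peaks with and without had 21.8 (20.2 to 24.3) and 18.6 (18.5 to 18.9).

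The early Hnf4a lists are short, with 370 to 453 peaks, and few Foxa2 peaks lay in them. The part of these lists at lost Foxa2 sites was dominated by a single stretch of chromosome 9. As shares of the 48-hour Hnf4a lists of the Foxa1, Foxa2 and Foxa3 lines, 31.1%, 31.1% and 33.8% of the Hnf4a peaks overlapped a lost Foxa2 peak. At kept Foxa2 peaks these shares were 5.26%, 2.43% and 1.35%, and at gained ones 5.74%, 0.662% and 0%. A single run of 5 lost Foxa2 peaks, on chromosome 9 at 2999984 to 3038411, spanned 110, 106 and 106 Hnf4a peaks of the 3 lists. In all, 130, 141 and 125 Hnf4a peaks of these lists overlapped a lost Foxa2 peak. The shares without this run were not computed, so they show no general link of early Hnf4a with lost sites. Of lost peaks, 31 (0.663%) overlapped a 48-hour Hnf4a peak of the Foxa2 line, beside 0.586% of the list, and of kept peaks 9 (0.419%). Of gained peaks 2 (0.0244%) did, beside 0.106% of the iHep list, and 0 of 8182 overlapped one of the Foxa3 line, beside 0.0484% (a count of 0 allows up to 0.0367%). The 48-hour Hnf4a list of the Foxa1 line held 20 kept (0.931%), 19 lost (0.406%) and 20 gained peaks (0.244%), beside 0.571% of the 48-hour and 0.387% of the iHep list. That of the Foxa3 line held 5 kept and 23 lost peaks (0.492%), beside 0.41%. Any of the 6 Hnf4a lists was met by 179 kept (8.33%), 88 lost (1.88%) and 507 gained peaks (6.20%), beside 3.91% of the 48-hour and 6.64% of the iHep list. Of the lost Foxa2 peaks, 8 lay in or within 10 kb of 3 dense blocks of 48-hour Hnf4a peaks, the largest on chromosome 9 at 3000016 to 3038294, and no kept, gained or already present peak did. The 3 widest lost peaks, of 15228, 11406 and 5302 bp, all lay in the chromosome 9 block, with scores of 43.2 to 46.8. Each overlapped peaks of the 48-hour Foxa1, Foxa3 and all 3 Hnf4a lists, and of the iHep Hnf4a list of the Foxa2 line. The widest also met the iHep Hnf4a list of the Foxa1 line. The widest gained peaks measured 1370 bp on chromosome 1 (163257264 to 163258633), 1283 bp on chromosome 4 (59141581 to 59142863) and 1261 bp on chromosome 10 (107882005 to 107883265), and each was an iHep Foxa1 peak.

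Most lost and most gained sites were in none of the 11 other lists. This held for 3097 lost peaks (66.2%, 64.8% to 67.5%), beside 50.7% of the 48-hour list, and for 4990 gained peaks (61.0%, 59.9% to 62.0%), beside 51.9% of the iHep list. It held for 365 kept peaks (17.0%, 15.5% to 18.6%). Counted over the other 4 Foxa lists, the most frequent pattern among kept peaks was Foxa1 at both stages without Foxa3 (881 peaks, 41.0%), followed by Foxa1 at 48 hours alone (672, 31.3%) and by no other Foxa (392, 18.2%). Among lost peaks it was no other Foxa (3146, 67.2%), followed by Foxa1 at 48 hours alone (1377, 29.4%). Gained peaks without other Foxa numbered 5207 (63.6%), and the rest was spread almost evenly over Foxa1 at both stages (965, 11.8%), at 48 hours alone (945, 11.5%) and in iHep cells alone (929, 11.4%).

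Lost sites had an iHep Foxa2 peak close by less often than kept sites did, counterparts left out. Shares over the whole lists were not computed for these distances. Of lost peaks 11.8% (10.9% to 12.8%) had the centre of an iHep Foxa2 peak within 10 kb, with a median distance of 80.8 kb. Kept peaks had, apart from their own counterpart, another iHep peak within 10 kb in 23.9% of cases (22.1% to 25.7%), with a median distance of 34.4 kb. A gained peak lay within 10 kb of 8.21% of lost peaks (7.45% to 9.03%) and of 18.9% of kept peaks (17.3% to 20.6%). From the other side, 4.88% of gained peaks had a lost and 5.41% a kept peak within 10 kb, although lost peaks outnumber kept ones by 4679 to 2148. With the upper 50% of each list by score, the share of lost peaks with an iHep peak within 10 kb was 7.12%.

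**Figure D4:**
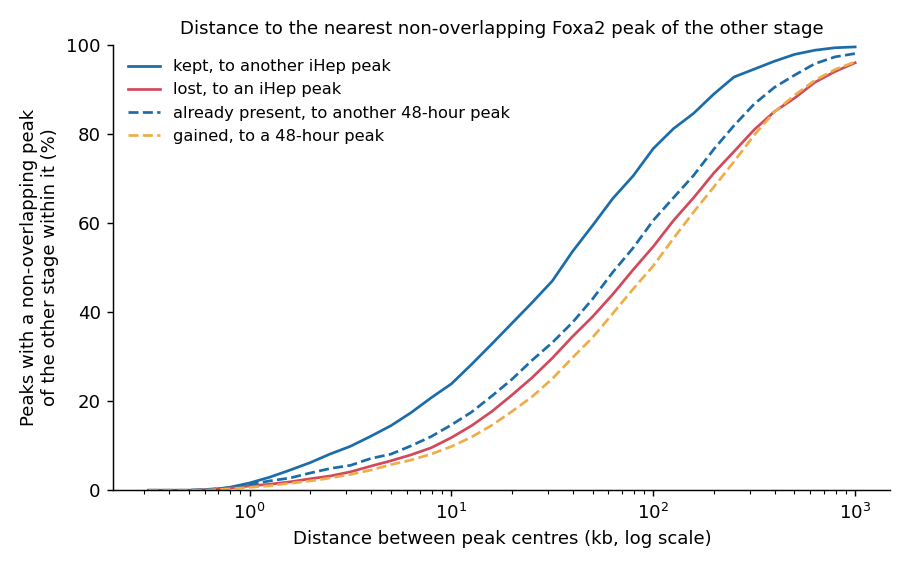
Share of Foxa2 peaks (%, vertical axis) whose nearest non-overlapping Foxa2 peak of the other stage lies within a given distance between centres (kb, log scale). The kept curve runs above the lost curve, with 23.9% against 11.8% at 10 kb, and the already present curve above the gained curve, with 14.7% against 9.81%.

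Spacing within a list differed less by class. The nearest peak of the same list lay at a median of 65.4 kb from kept peaks (60.7 to 71.6 kb) and 56.9 kb from lost peaks (53.8 to 60.8 kb), and the intervals just overlap. In the longer iHep list it lay at 34.1 kb (32.0 to 37.4 kb) for already present and 31.1 kb (30.2 to 32.3 kb) for gained peaks. Another peak of the list lay within 10 kb for 14.99% of kept (13.5% to 16.6%) and 17.8% of lost peaks (16.7% to 18.9%), and for 24.2% of already present and 25.9% of gained peaks. Runs of neighbours of one class up to 10 kb apart held 696 lost peaks (14.9%) in 324 runs and 1845 gained peaks (22.5%) in 839 runs, and none exceeded 5 peaks. A class with more members forms more runs, so these shares are not comparable between classes.

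The longest runs of each class had these neighbours. A run of 5 lost peaks on chromosome 17 at 39979959 to 39985532 held no Foxa1 or Foxa3 peak of either stage but 4 Hnf4a peaks of the Foxa2 line at 48 hours and 3 in iHep cells, and 3 and 4 of the Foxa3 line. The other run of 5 lost peaks is the chromosome 9 block. The chromosome 17 run lies outside the dense blocks, so their removal did not take it out. Mappability was not checked for either stretch. Runs of 5 gained peaks lay on chromosome 1 at 143351586 to 143363101, with 2 Foxa1 peaks at each stage, and on chromosome 16 at 93716049 to 93738640, with no Foxa1 or Foxa3 peak and 1 iHep Hnf4a peak of the Foxa1 line. The longest run of kept peaks had 4, on chromosome 6 at 87220291 to 87245180, where 4 Foxa1 peaks were found at 48 hours and 1 in iHep cells, with 1 iHep Hnf4a peak in each of the Foxa1 and Foxa2 lines.

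The classes were also counted in windows of 1 Mb. Foxa2 peaks fell into 2237 windows, of which 229 held only lost and 324 only gained peaks, while 1387 held both. Of 1167 windows with a kept peak, 1087 also held a gained one. The rank correlation of counts per window was 0.38 between kept and gained, 0.24 between kept and lost and 0.12 between lost and gained peaks, as descriptions over windows that also share gene content and mappability. The window with the most gained peaks, on chromosome 7 from 26 to 27 Mb, held 20 gained, 2 kept and 0 lost peaks. Lost peaks were most numerous on chromosome 3 from 39 to 40 Mb, with 15 lost, 1 kept and 1 gained, and on chromosome 16 from 77 to 78 Mb, with 15 lost, 3 kept and 7 gained. The window on chromosome 10 from 96 to 97 Mb was rich at both stages, with 9 kept, 4 lost and 16 gained peaks. These windows were picked after their counts were seen.

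The larger number of iHep peaks was found on all 20 chromosomes that held Foxa2 peaks. Over the whole lists there were 1.51 iHep peaks per 48-hour peak (1.47 to 1.56, counting interval). The ratio was lowest on chromosome 10, at 1.18 (1.04 to 1.33), and the median chromosome had 1.50. It was highest on the X chromosome, with 2.15 (1.72 to 2.70). Next came chromosome 7 with a ratio of 2.103 (1.80 to 2.45) and chromosome 19 with a ratio of 2.01 (1.64 to 2.45). On chromosome 11 there were 1.85 iHep peaks per 48-hour peak (1.60 to 2.14). The intervals of these 5 chromosomes do not hold the whole-list ratio, and those of the other 15 do. Gained peaks per lost peak ranged from 1.25 on chromosome 10 to 2.79 on the X chromosome.

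The kept share departed from the whole list on fewer chromosomes than the ratio did. It ranged from 23.2% (18.7% to 28.4%) on chromosome 16 to 38.6% (33.1% to 44.4%) on chromosome 11, with 32.0% on the median chromosome. Chromosomes 16, 11 and 4, the latter with 26.4% (22.5% to 30.7%), were the 3 whose interval does not hold the whole-list share. The already present share was highest on chromosome 10, at 25.7% (22.3% to 29.5%), and lowest on chromosome 19, at 15.3% (11.6% to 19.96%). Its interval held the whole-list already present share on 16 of the 20 chromosomes. Across the 20 chromosomes the ratio of iHep to 48-hour peaks and the kept share had a rank correlation of 0.58, a description in which both measures share the 48-hour count.

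**Figure D5:**
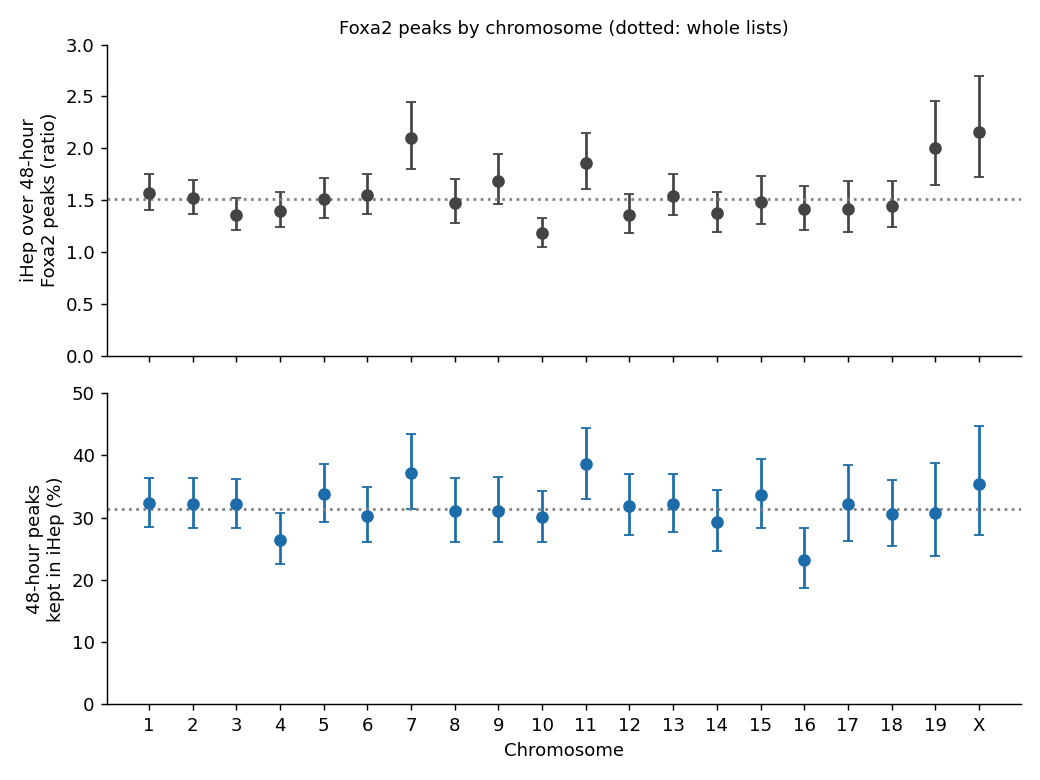
Ratio of iHep to 48-hour Foxa2 peaks (upper panel) and share of 48-hour Foxa2 peaks kept in iHep cells (%, lower panel) for each chromosome, with 95% counting intervals of the ratio and 95% Wilson intervals of the share; dotted lines give the whole lists, 1.51 and 31.5%. Chromosomes 7, 11, 19 and X lie above the dotted line of the ratio and chromosome 10 below it, and chromosome 16 has the lowest kept share, 23.2%.

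The lists of the paralogs changed in length in other ways. The ratio of iHep to 48-hour peaks was 0.507 for Foxa1, with fewer iHep peaks on all 20 chromosomes, and 2.23 for Foxa3, with more on all 20. By chromosome the Foxa1 ratio spanned 0.435 to 0.672, and its rank correlation with that of Foxa2 was 0.69, against 0.16 between Foxa3 and Foxa2, each over 20 chromosomes and as a description. By the same rule 30.8% of 48-hour Foxa1 peaks (29.7% to 31.9%) and 74.2% of 48-hour Foxa3 peaks (73.1% to 75.3%) were kept, beside 31.5% for Foxa2. The already present share of the iHep list was 60.8% for Foxa1 (59.2% to 62.4%) and 43.8% for Foxa3 (42.96% to 44.7%), beside 20.8% for Foxa2. With 1 library per protein and stage and unknown depth, these differences were not tested.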

How the data were processed

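Peak lists of 13 of the 21 samples were used, and the 8 inputs are not analysed here. Each list gives chromosome, start, end, name and the authors' deposited score, used only within a list because the sources used here do not define it. Per the submitters' processing notes BWA 0.6.2, MACS2 2.1.0, bedtools 2.16.2 and build mm9 were used, without a role for each. The files hold no read counts, so depth is unknown. Starts are printed with the first base as 1. No gene, motif or sequence was assigned, since the gene and promoter tables at hand are on another build, GRCm38. Samples were grouped by title. Peaks were classed by overlap of at least 1 bp. Shares carry 95% Wilson intervals, medians exact order-statistic intervals and ratios of counts Poisson intervals on the log scale. Background shares are those of the whole list. Dense blocks are stretches where every 48-hour Hnf4a list holds 5 or more chained peaks no more than 2 kb apart, and Foxa2 peaks within 10 kb of them were counted with them.

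Named sites followed a rule: the 5 kept sites with the best summed rank, the 5 lost and 5 gained with the highest score, the 3 widest lost and gained peaks and the longest runs. The 1 Mb windows and further runs were chosen after their values were seen. The members, the rule and the alternatives were chosen with earlier results of these data known. Alternatives were stricter overlap, centres within 200 bp, the upper 50% by score, lists of equal length, autosomes only, merging within 500 bp and removal of dense blocks. Simulated lists with known overlaps were used to test the scripts. Computation used matplotlib 3.10.9, SciPy 1.17.1, pandas 2.3.3 and NumPy 2.4.6 under Python 3.11.15.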

Additional observations from a re-analysis of the deposited data

Results flagged for a closer look

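The number of Foxa2 peaks was higher in iHep cells than at 48 hours, by a ratio of 1.51, while the number of Foxa1 peaks was lower, with a ratio of 0.507. The pair is listed because the single libraries of each protein moved in opposite directions, and the difference was not tested.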

How the results depend on the processing

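Of the shares reported, 15 were recomputed under 7 alternatives, 5 of them (shared peaks at Foxa1 or Hnf4a, and kept shares by Foxa1 status) added after the data were seen. Shares at Foxa3, at the other Hnf4a lists, in no other list, by score group, in runs and by chromosome were not recomputed. All 15 shares stayed within their interval when overlaps had to cover 50% of the shorter peak, on autosomes, with peaks within 500 bp merged and without the dense blocks. With centres within 200 bp 14 did, and lost peaks with an iHep peak within 10 kb made up 12.97%. In the upper 50% by score the kept share was 29.2% (11.4% without 48-hour Foxa1) and the already present share 19.3%. There, lost peaks lay at iHep Foxa1 in 0.952% and within 10 kb of an iHep peak in 7.12% of cases, kept peaks at 48-hour Foxa1 in 78.3%, and iHep Hnf4a of the Foxa2 line was at 3.91% of gained and 5.01% of already present peaks. With the longer lists reduced to 6827 peaks the kept share was 25.4%, with 45.8% with and 8.57% without 48-hour Foxa1, and the already present share 25.4%. Of kept peaks 65.3% and of already present peaks 65.0% then scored above the list median, against 62.8% and 68.8% in the full lists. Lost peaks lay at 48-hour Foxa1 in 32.9%, at iHep Foxa1 in 2.102% and within 10 kb of an iHep peak in 8.55% of cases, kept peaks at 48-hour Foxa1 in 81.6% and at iHep Foxa1 in 54.5%, and gained peaks at 48-hour Foxa1 in 31.0% and at iHep Foxa1 in 33.2%. With peaks within 1 kb counted as overlap, an alternative added after the data were seen, the shares were 32.6% kept and 21.9% already present. The causes of these moves were not tested, apart from the fewer peaks that the reductions leave by construction. No paired analysis was possible because each group has 1 library and no result comes from a test. Without read counts, a lost or gained peak may be one that passed the authors' calling at only one stage, and this was not tested.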
